A study of Mus musculus with 9 samples.

Results

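Semaphorins, plexins and neuropilins were described across 3 populations of sorted mouse knee cells. The set was 31 genes, chosen by gene symbol, a rule that uses no measured value, although the family was proposed with earlier results of these data known: 20 semaphorins (ligands), 9 plexins (their receptors) and 2 neuropilins (co-receptors), of 54532 genes in the deposited table. All 31 were found in the table, and all 31 were abundant enough to be tested. The cells came from developing knees of E14.5 mouse embryos with the genotype Creb53XHA-P2A-tdTomato/+; Sox9iresEGFP/+, so every population, the reference included, carried 1 reporter allele of each gene. In these alleles a tdTomato reporter follows Creb5, a bZIP transcription factor, and an EGFP reporter follows Sox9, the transcription factor that directs cartilage formation. Knees were dissected by their fluorescence and dissociated with collagenase, and cells were sorted into those with EGFP alone (GFP-only), tdTomato alone (RFP-only) or both (double-positive). No drug or other treatment was named. Each population had 3 libraries of polyadenylated RNA, 1 from each of the litters numbered 1, 2 and 5, for 9 libraries in all. A library pooled cells sorted by reporter rather than by cell type, and the reporters also mark cells outside the joint. In such bulk libraries, fewer cells that make a transcript and less transcript per cell cannot be told apart.

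Semaphorins are secreted, membrane-spanning or lipid-anchored proteins that bind plexins on neighbouring cells or on growing axons. Plexins carry a GTPase-activating domain, and their activation dismantles the cytoskeleton and loosens integrin adhesion, which usually repels the cell or axon. Most class 3 semaphorins, which are secreted, need a neuropilin to bind a class A plexin, whereas Sema3e binds Plxnd1 directly. Neuropilins are also co-receptors for vascular endothelial growth factors, so the family guides both nerves and blood vessels. In the limb, these cues steer sensory and motor axons, pattern vessels around cartilage that has none of its own, and act in bone on osteoblasts and osteoclasts.

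Promoter letters are shown for 3 of the members that were called. Sema5b was called against GFP-only cells in both other populations, as was Plxna4, whose letters are not shown. Sema6b and Sema3e were the members that differed for double-positive against RFP-only cells, in opposite directions. The sequences are the 250 bases before a start site in the RefSeq table on GRCm38.p6, 5′ to 3′ on the gene's strand, where 26 of the 31 members had 37 promoters. Capitals mark matches on either strand to the GC box GGGCGG or the AP-1 motif TGANTCA.
Sema5b promoter (chr16:35541112-35541361, plus strand): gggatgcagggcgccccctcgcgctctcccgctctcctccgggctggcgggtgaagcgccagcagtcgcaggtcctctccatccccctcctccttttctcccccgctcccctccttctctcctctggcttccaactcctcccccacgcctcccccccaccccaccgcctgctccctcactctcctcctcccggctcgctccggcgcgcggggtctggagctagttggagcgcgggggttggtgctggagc
Sema6b promoter (chr17:56133853-56134102, minus strand): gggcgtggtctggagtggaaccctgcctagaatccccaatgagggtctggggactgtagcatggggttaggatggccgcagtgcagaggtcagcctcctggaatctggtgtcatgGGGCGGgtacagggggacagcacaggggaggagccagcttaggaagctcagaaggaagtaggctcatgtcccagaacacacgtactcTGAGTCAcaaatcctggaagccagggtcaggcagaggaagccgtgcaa
Sema3e promoter (chr5:14025026-14025275, plus strand): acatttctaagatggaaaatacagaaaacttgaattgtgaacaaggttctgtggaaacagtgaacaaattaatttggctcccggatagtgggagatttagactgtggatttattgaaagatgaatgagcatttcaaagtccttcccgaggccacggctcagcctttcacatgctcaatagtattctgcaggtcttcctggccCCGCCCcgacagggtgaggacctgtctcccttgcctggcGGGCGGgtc
The Sema6b start shown lies inside the annotated gene (chr17:56123085-56140343, minus strand, GENCODE M21 on GRCm38), while the Sema3e start is the first base of its gene (chr5:14025276-14256689, plus strand). The Sema5b start also lies inside its gene (chr16:35541145-35664732, plus strand), so most of that window is within the gene rather than upstream of it. The Sema5b window held no match to any of the 5 motifs searched. The Sema6b window was picked from promoters of that gene with an AP-1 match, so its AP-1 match follows from the choice and is not a result. That window also held a GC box. The Sema3e window held GC boxes on both strands. These are letters in a window and not sites of binding.

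Motif content of the member promoters is given beside that of 32851 promoters of the same length. Chromosome 18 was left out of the member promoters but not of the 32851. The GC box was in 27 of the 37 member promoters and in 32.7% of all promoters, and the median GC content was 64.0% against 52.4%. The AP-1 motif was in 3 member promoters (Sema4c, Sema4d and Sema6b; 6.75% of all). The SOX motif ACAAAG was in 5 (Plxnb3, Sema3a, Sema3d, Sema4f and Sema6d; 16.5% of all). The short CRE motif TGACG, to which CREB-family proteins can bind, was in 1 member promoter, that of Sema3d (17.8% of all), and the full site TGACGTCA was in 0 (1.55% of all), where the short motif lies within the full one.

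Recovered read totals were 25199258 to 47079305 per library. The sort was checked on its own genes: Creb5 measured 138 to 274 normalized counts in GFP-only and at least 2006 in every double-positive and RFP-only library, and Sox9 at most 1891 in RFP-only and at least 16565 in the others. Markers of other cell types were present in all populations. The summed level of 13 endothelial markers was 1278 to 2327 normalized counts in GFP-only, 1668 to 6415 in double-positive and 5677 to 7303 in RFP-only libraries. For 14 Schwann cell and neuron markers it was 1761 to 4824, 3362 to 5691 and 6842 to 8305, and for 13 blood and immune markers 1387 to 2331, 3572 to 22582 and 1841 to 5532, in the same order. Skeletal muscle (11 markers) gave 802 to 2046, 1077 to 3386 and 9071 to 33514. Cartilage markers (11) ran the other way, with at least 1302508 in GFP-only and at most 11357 in RFP-only libraries. Of each of these lists, 0 markers were at 0 in a whole population. Several other lists also differed between RFP-only and GFP-only cells, where 11.8% of all tested genes were higher and 8.48% lower. In RFP-only cells 8 of 10 loose connective tissue and perichondrium markers were higher. Of 10 pericyte and smooth muscle markers, 9 were higher and 1 lower. Of 6 tendon markers 5 were higher, and 8 of 8 prehypertrophic and hypertrophic markers were lower. Joint interzone markers (10) summed highest in double-positive libraries, at 55381 to 105280. Many semaphorins and receptors are also made by vessels, nerves, muscle and leukocytes, and the part of any cell type in the differences below was not tested.

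The litter 5 GFP-only library stood apart. In it, 28 of the 31 members were lower than the mean of the other 2 GFP-only libraries, by a median of 1.10 on the log2 scale (−1.10), against 0.01 for all tested genes. The deviation followed transcript length: tested genes of up to 2000 exonic bases deviated by a median of 0.91, and those of 7720 bases or more, the median length of the members, by −0.40. The members' median deviation was therefore also lower than that of genes of their length. In the other 8 libraries the members' median deviation lay between −0.17 and 0.61, and the 2 positive extremes belonged to the other GFP-only libraries, which were compared with it. Each member result that passed against GFP-only cells is therefore given below with all libraries and again without that library. Some of those that did not pass are given in both ways. Other pathway genes are given as counts without it.

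**Figure D1:**
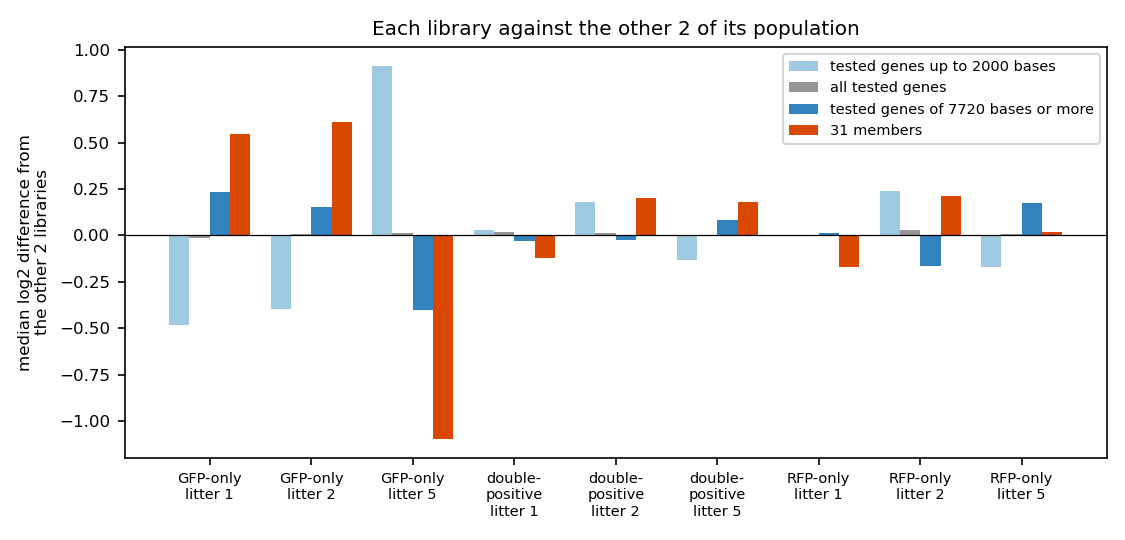
Bars show, for each library, the median log2 difference from the mean of the other 2 libraries of its population over tested genes of up to 2000 exonic bases, all tested genes, tested genes of 7720 bases or more, and the 31 members. The litter 5 GFP-only library is low for members (−1.10) and high for short genes (0.91).

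In absolute terms, Plxnb2 and Sema3c led the family in all 3 populations. Levels were compared between genes as normalized counts per kilobase of exon, so that long transcripts do not count more. Plxnb2, a class B plexin, measured 817 ± 165 in GFP-only, 929 ± 179 in double-positive and 830.2 ± 129 in RFP-only cells (SD, n = 3 here and below). Sema3c, a secreted ligand, measured 571 ± 283, 1150.2 ± 175 and 928 ± 182. Plxnb2 ranked first in GFP-only cells and Sema3c in the others, and their libraries overlapped in each population. Below them the order differed by population. Sema6a and Nrp2 followed in GFP-only cells (335 ± 247 and 310.4 ± 190.2 per kilobase), Sema3f and Sema6a in double-positive cells (525 ± 60.2 and 329 ± 45.1), and Sema3f and Nrp1 in RFP-only cells (661 ± 45.8 and 556 ± 151). At the other end were Sema3g and Plxnb3, joined by Plxna4 in GFP-only cells and by Sema7a in the others. Plxnb3 had no read in any GFP-only library.

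**Figure D2:**
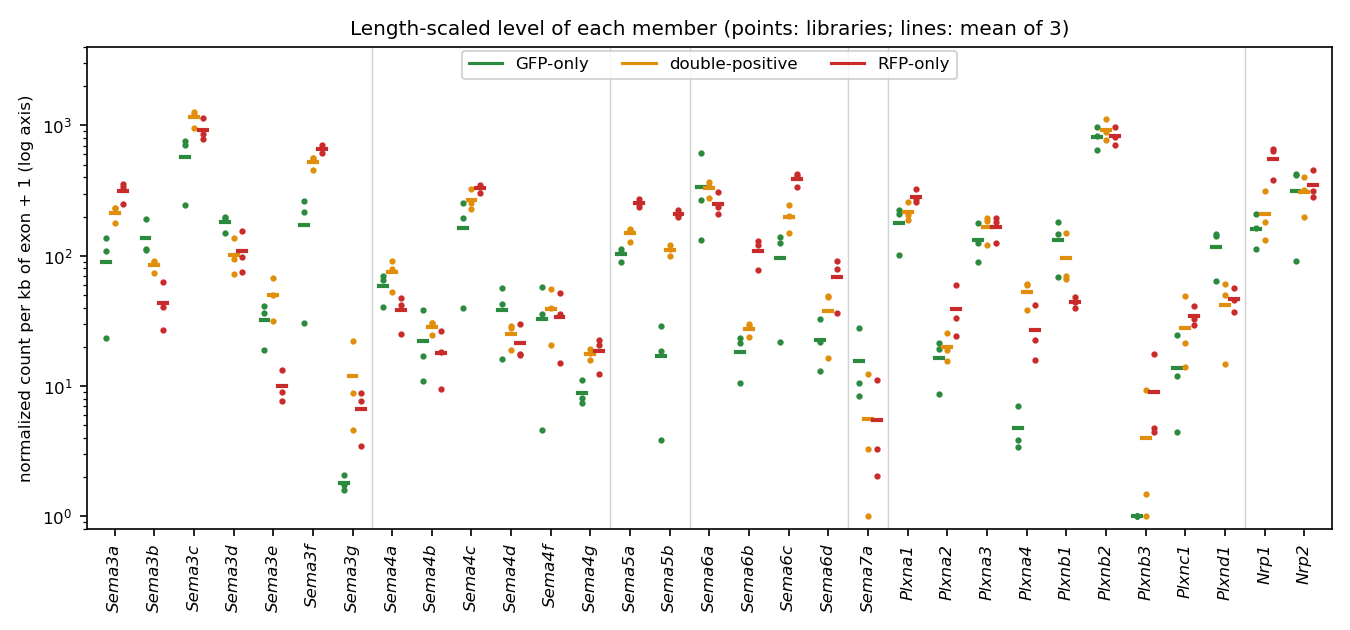
Normalized count per kilobase of exon plus 1 (log axis) of the 31 members, with points for libraries and lines for the mean of 3 libraries in each population. Plxnb2 and Sema3c lie at the top in every population, and Sema3g and Plxnb3 near the bottom.

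Most differences lay between the 2 single-positive populations. Between RFP-only and GFP-only cells, 12 of the 31 members passed the test (limma on log2(normalized count + 1), adjusted p under 0.05 over 17764 genes), 9 higher and 3 lower in RFP-only cells. Of all tested genes, 20.3% passed, 11.8% higher and 8.48% lower. The libraries of these populations did not overlap for 21 members, against 39.4% of all tested genes. The median log2 difference of the members was 0.85, against 0.05 for all tested genes. Without the litter 5 GFP-only library the median was 0.39 and 13 members passed, the same 12 and Sema4d. For all tested genes the median in that fit was 0.02, and 20.6% passed. Over all 3 populations at once, 11 members passed an F-test, against 17.2% of all genes.

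Double-positive cells differed from either single-positive population for fewer members. Against GFP-only cells, 3 members passed, all higher in double-positive cells, where 8.29% of all tested genes passed, 5.27% higher and 3.02% lower, and 13 members did not overlap (28.1% of all genes). The median log2 difference was 0.58 for the members and 0.04 for all genes. When the litter 5 GFP-only library was left out, the median was 0.30 and 5 members passed, of which 2 were among the 3. For all tested genes the median in that fit was 0.006, and 8.74% passed. Against RFP-only cells, 2 members passed, 1 in each direction, where 2.85% of all tested genes passed, with 1.8% higher in double-positive cells and 1.05% lower, and 11 members did not overlap (23.8% of all genes). The median log2 differences were −0.23 for the members and −0.01 for all genes. The double-positive mean lay between the other 2 for 19 of the 31 members, as for 52.8% of all tested genes. The mean was highest in RFP-only cells for 15 members (35.2% of all genes), in double-positive cells for 9 (23.9%) and in GFP-only cells for 7 (40.9%). The number of members higher in double-positive than in both single-positive populations was 0 by limma, edgeR and DESeq2. Of all tested genes, 0.236%, 0.208% and 0.636% were. At unadjusted limma p under 0.05 it was 1, Plxna4, against 1.35% of all tested genes. The number lower than in both was 0 by all 3 tools and at unadjusted p. The shares of all tested genes were 0.0619%, 0.045% and 0.315%, and 0.805% at unadjusted p. The comparisons share libraries, so their values are given side by side and not as separate lines of evidence.

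**Figure D3:**
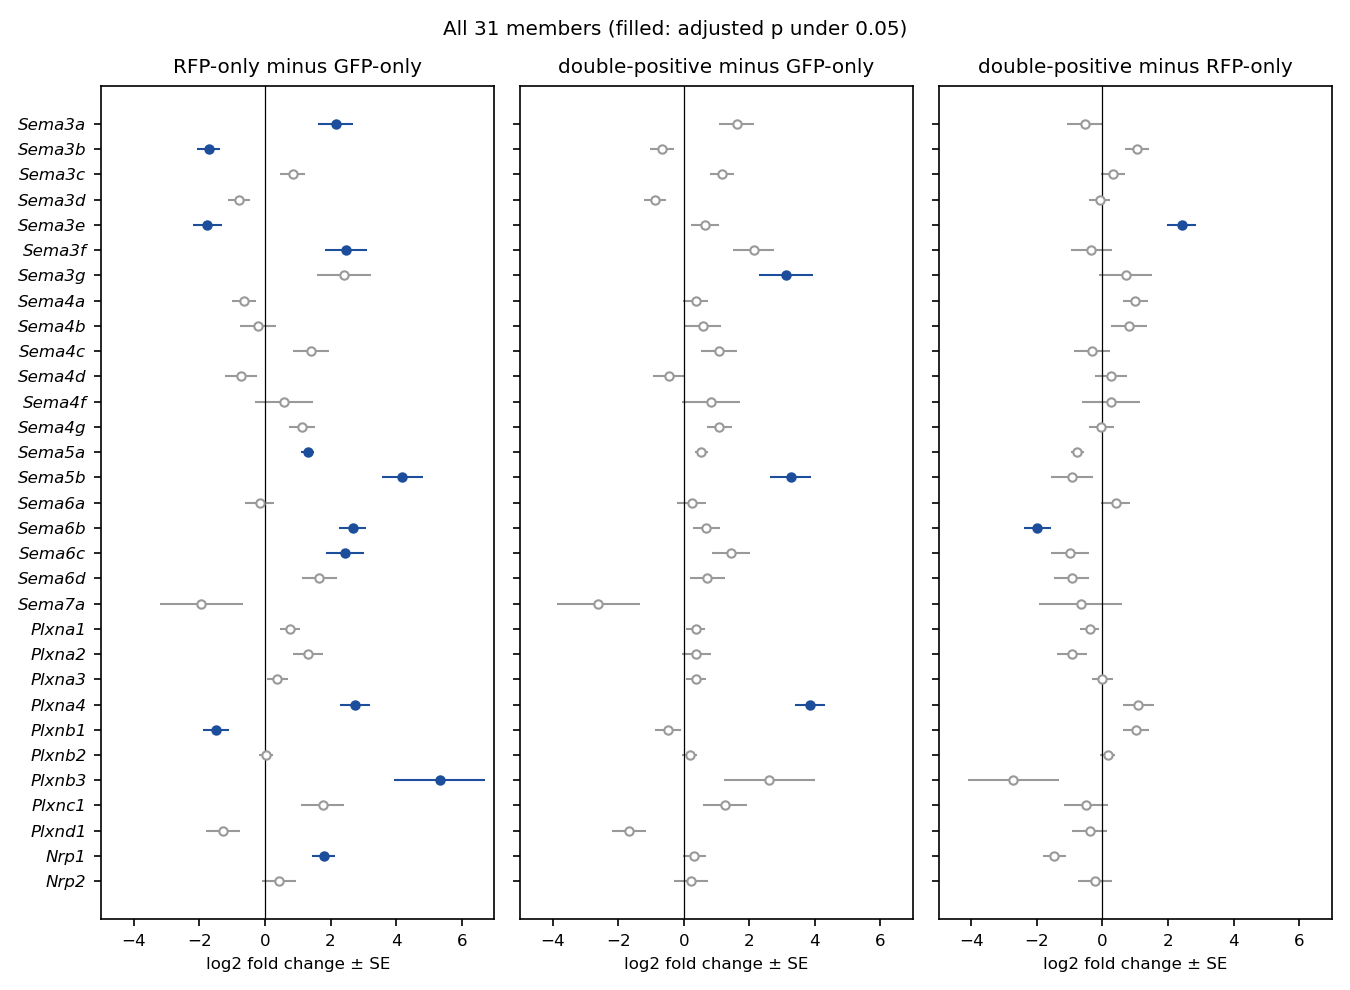
Log2 difference ± SE of the 31 members in the 3 comparisons between populations, with filled symbols where the adjusted p was under 0.05. In RFP-only against GFP-only cells 12 members are filled, against 3 and 2 in the other panels.

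Among the secreted class 3 ligands, Sema3a and Sema3f were higher in RFP-only than GFP-only cells, and Sema3b and Sema3e were lower. Sema3a, which repels sensory and motor axons through Nrp1 and class A plexins, measured 1495, 1899 and 311 normalized counts in the GFP-only libraries of litters 1, 2 and 5, in that order here and below. It measured 3187, 3206 and 2478 in double-positive and 4908, 3471 and 4619 in RFP-only libraries. The 3 populations did not overlap, and the lowest value by far was the litter 5 GFP-only library. The log2 difference between RFP-only and GFP-only cells was 2.16 ± 0.53 (adjusted p = 0.0151), and without that library it was 1.35 (adjusted p = 0.00173). The call was lost without the litter 1 RFP-only library (adjusted p = 0.0564) or litter 5 (0.0544). For double-positive against GFP-only cells the difference was 1.61 ± 0.53 (adjusted p = 0.0874), which did not pass, and without the litter 5 GFP-only library it was 0.80 (adjusted p = 0.0401).

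Sema3f, which acts mainly through Nrp2 and repels axons and endothelial cells, had the same order. It measured 1129, 1374 and 152 in GFP-only, 2914, 2907 and 2369 in double-positive and 3662, 3188 and 3462 in RFP-only libraries, again with no overlap. The difference between RFP-only and GFP-only cells was 2.47 ± 0.63 (adjusted p = 0.0185), and without the litter 5 GFP-only library it was 1.46 (adjusted p = 0.000376). The call was lost without the litter 1 RFP-only library (adjusted p = 0.0599) or litter 5 (0.0588). Against GFP-only cells the double-positive difference of 2.13 ± 0.63 (adjusted p = 0.063) missed the threshold. It passed with litter as a fixed block (adjusted p = 0.0492) and without the litter 5 GFP-only library (1.12, adjusted p = 0.00436). DESeq2 called it with all libraries (adjusted p = 0.0245), and edgeR did not. As a share of the summed class 3 level per kilobase, Sema3f made up 12.5 ± 6.44% in GFP-only, 24.8 ± 4.28% in double-positive and 32.2 ± 3.56% in RFP-only cells. The GFP-only libraries spanned 5.09 to 16.6%.

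Sema3b, a ligand that binds both neuropilins, ran the other way. It measured 524, 911 and 529 in GFP-only, 422, 349 and 434 in double-positive and 187, 298 and 125 in RFP-only libraries. The populations did not overlap, with every GFP-only library above every double-positive library and those above every RFP-only library. Only the outer difference passed, at −1.72 ± 0.37 (adjusted p = 0.00697) for RFP-only against GFP-only cells. The steps between were −0.66 ± 0.37 (adjusted p = 0.286) for double-positive against GFP-only and 1.06 ± 0.37 (adjusted p = 0.183) for double-positive against RFP-only cells. Without the litter 5 GFP-only library, the differences from GFP-only cells were −1.85 (adjusted p = 0.0088) for RFP-only and −0.79 (adjusted p = 0.255) for double-positive cells.

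Sema3e, the Plxnd1 ligand that repels endothelial cells, was low in RFP-only cells alone. It measured 329.8, 369.7 and 167 in GFP-only, 454, 282 and 622 in double-positive and 61.7, 73.6 and 113 in RFP-only libraries. All 3 RFP-only libraries lay below all others, while GFP-only and double-positive libraries overlapped. The difference was −1.76 ± 0.43 (adjusted p = 0.0149) for RFP-only against GFP-only cells and 2.41 ± 0.43 (adjusted p = 0.013) for double-positive against RFP-only cells, so that the double-positive mean was 5.46 times the RFP-only mean. The first difference was −2.11 (adjusted p = 0.00559) without the litter 5 GFP-only library, and its call was lost without the litter 1 RFP-only library (adjusted p = 0.064). The second was lost without the litter 1 or 5 double-positive library or the litter 1 or 2 RFP-only library, with adjusted p of 0.0588 to 0.0708. Over all libraries left out in turn its adjusted p ranged from 0.00577 to 0.0708.

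Its receptor Plxnd1, known from vessel patterning, was higher in GFP-only than in double-positive cells by its values but not by the test. It measured 1023, 1060.2 and 461 in GFP-only, 99.9, 435 and 355 in double-positive and 325, 407 and 265 in RFP-only libraries. Every GFP-only library lay above every other library. The differences from GFP-only cells were −1.67 ± 0.53 (adjusted p = 0.0759) for double-positive and −1.28 ± 0.53 (adjusted p = 0.112) for RFP-only cells. The first passed without the litter 5 GFP-only library (−2.06, adjusted p = 0.0449) and after a correction for transcript length (adjusted p = 0.0418), and the second was −1.67 (adjusted p = 0.0554) without that library. With all libraries, DESeq2 called both (adjusted p = 0.0239 and 0.0325) and edgeR called neither. The endothelial marker sums averaged 1975 in GFP-only, 4071 in double-positive and 6512 in RFP-only libraries, and those of GFP-only and double-positive libraries overlapped. The part of endothelial cells in the Plxnd1 values was not tested.

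Sema3c, the most abundant ligand, and Sema3d gave differences that missed the threshold. Sema3c measured 5037, 5439 and 1757 in GFP-only, 8785, 6783 and 9069 in double-positive and 5612, 6169 and 8088 in RFP-only libraries. The GFP-only libraries lay below all others, with differences of 1.16 ± 0.37 (adjusted p = 0.0812) for double-positive and 0.85 ± 0.37 (adjusted p = 0.135) for RFP-only cells. Leaving out the litter 5 GFP-only library reduced these to 0.64 (adjusted p = 0.0692) and 0.32 (adjusted p = 0.279). It made up 47.4 ± 4.33%, 53.7 ± 3.98% and 44.7 ± 4.45% of the class 3 level per kilobase in GFP-only, double-positive and RFP-only cells. Sema3d measured 1671, 1707 and 1267, 802, 616 and 1175 and 631, 836 and 1330.0 in the same order, and its differences from GFP-only cells were −0.88 ± 0.32 (adjusted p = 0.121) and −0.79 ± 0.32 (adjusted p = 0.111). They were −1.02 (adjusted p = 0.0982) and −0.93 (adjusted p = 0.0847) without that library. Both passed after the correction for transcript length (adjusted p = 0.0414 and 0.0228). Sema3d thus had its highest mean in GFP-only cells, where Sema3a, Sema3c, Sema3f and Sema3g had their lowest.

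Sema3g, which in mouse is made mainly by arterial endothelium, was rare. It measured 3.31, 4.90 and 2.71 in GFP-only, 16.3, 35.9 and 95.7 in double-positive and 35.8, 30.6 and 11.2 in RFP-only libraries, from 10, 191 and 82 reads. The GFP-only libraries were the lowest. Double-positive cells were higher than GFP-only cells by 3.12 ± 0.81 (adjusted p = 0.0384), which passed. The call was lost without any 1 of the GFP-only libraries, without the litter 2 or 5 double-positive library and without the litter 1 or 2 RFP-only library, with adjusted p of 0.0519 to 0.134. In the fit that left out the litter 5 GFP-only library, the difference was 2.97 (adjusted p = 0.0654). With litter as a fixed block the adjusted p was 0.0559. RFP-only cells were also higher than GFP-only cells, by 2.41 ± 0.81 (adjusted p = 0.0574), and by 2.26 (adjusted p = 0.0997) without the litter 5 GFP-only library. That difference missed the threshold, but passed with edgeR (adjusted p = 0.04997) and DESeq2 (adjusted p = 0.0199). For double-positive against RFP-only cells the difference was 0.71 ± 0.81 (adjusted p = 0.875), with overlapping libraries. Of the 13 endothelial markers, 2 passed as higher in double-positive than GFP-only cells and 7 as higher in RFP-only than GFP-only cells, with the sums given above. Their part in the Sema3g result was not tested.

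**Figure D4:**
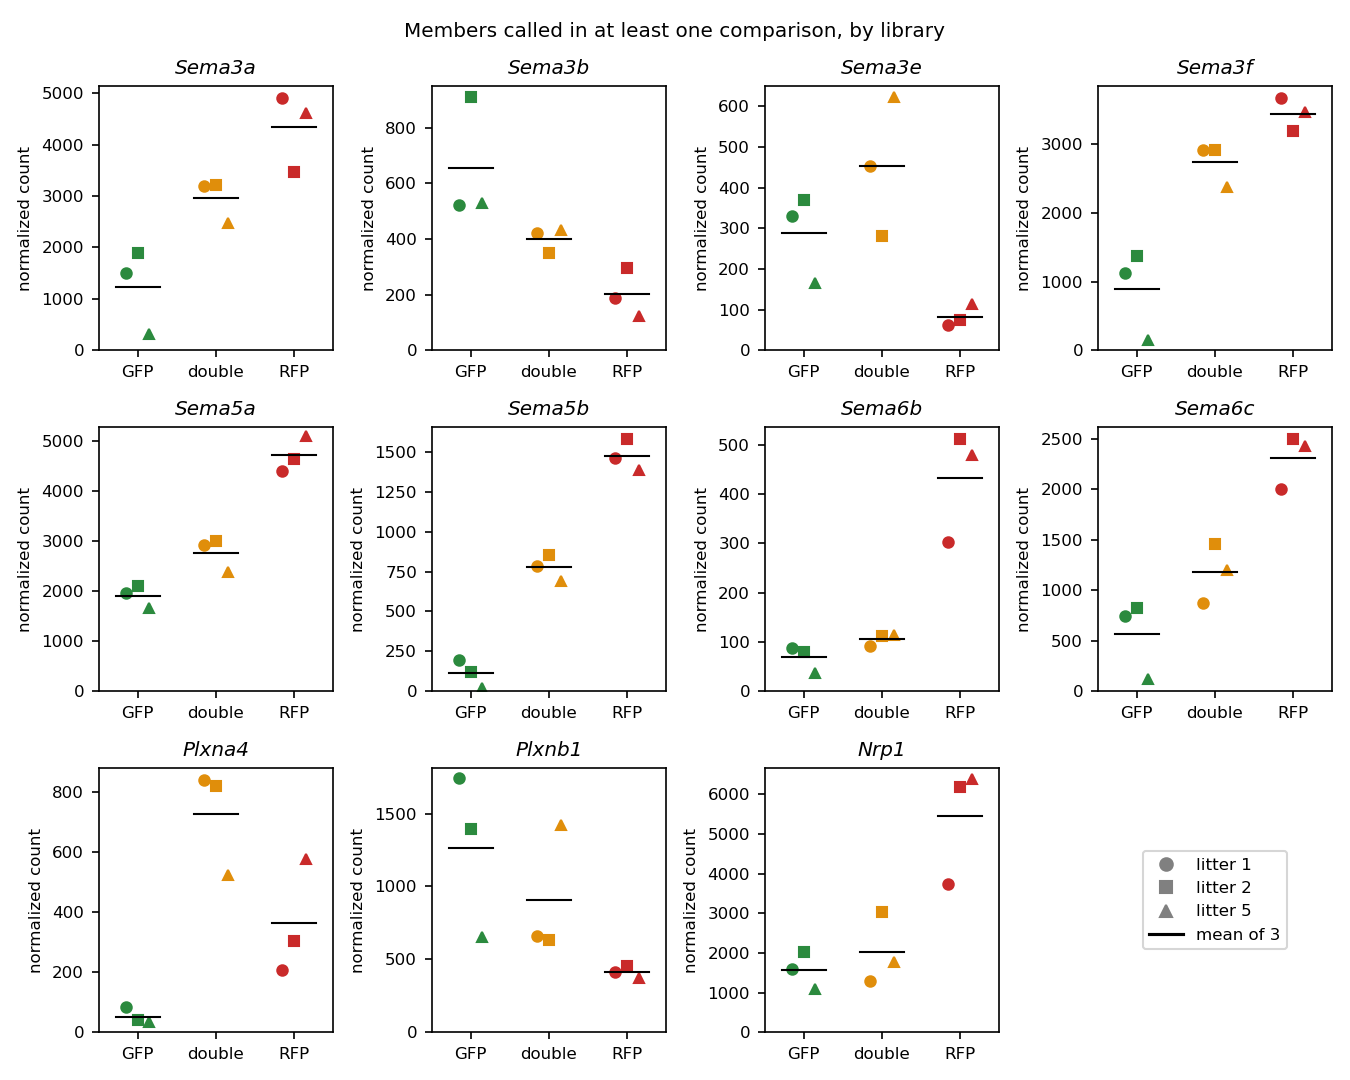
Normalized counts by library of the 11 members that passed in at least 1 comparison and averaged at least 100 in their highest population, with symbols for the litter and a line for the mean of 3. Sema3a, Sema3f, Sema5a, Sema5b and Sema6c step up from GFP-only to RFP-only cells, Sema3b steps down, Sema3e and Plxnb1 are low in RFP-only cells, Sema6b and Nrp1 are high in RFP-only cells, and Plxna4 is low in GFP-only cells.

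The class 5 ligands, which span the membrane and carry thrombospondin repeats, were both higher in RFP-only than GFP-only cells. Sema5b, known to inhibit axon growth, measured 196, 124 and 20.4 in GFP-only, 784, 854 and 694 in double-positive and 1457, 1576 and 1387 in RFP-only libraries. The 3 populations were far apart, and the RFP-only mean was 13.0 times the GFP-only mean. The log2 differences from GFP-only cells were 4.19 ± 0.63 (adjusted p = 0.000968) for RFP-only and 3.27 ± 0.63 (adjusted p = 0.0105) for double-positive cells. Both calls held when any 1 library was left out, with adjusted p of 5.27e-05 to 0.00565 and 0.000812 to 0.0476. Without the litter 5 GFP-only library the differences were 3.23 and 2.31 (adjusted p = 5.27e-05 and 0.000812). For double-positive against RFP-only cells the difference was −0.92 ± 0.63 (adjusted p = 0.664), and without that GFP-only library, which enters only the shared estimate of the spread, its adjusted p was 0.0346.

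Sema5a, which can attract or repel axons, had the smallest SE among the members that passed by limma. It measured 1971, 2093 and 1669 in GFP-only, 2916, 3005 and 2384 in double-positive and 4395, 4639.6 and 5104 in RFP-only libraries. The 3 populations did not overlap. RFP-only cells were above GFP-only cells by 1.31 ± 0.19 (adjusted p = 0.00089), with adjusted p of 0.000701 to 0.00732 when single libraries were left out. The double-positive value differed from GFP-only by 0.53 ± 0.19 (adjusted p = 0.116) and from RFP-only by −0.77 ± 0.19 (adjusted p = 0.061), neither of which passed. DESeq2 called both (adjusted p = 0.0455 and 0.0025) and edgeR called neither. With the litter 5 GFP-only library left out, the limma difference of double-positive from RFP-only cells had an adjusted p of 0.0124. The differences from GFP-only cells were then 1.21 (adjusted p = 0.000701) for RFP-only and 0.44 (adjusted p = 0.114) for double-positive cells. Within class 5, Sema5b made up 12.5 ± 8.88% of the level per kilobase in GFP-only, 42.6 ± 0.997% in double-positive and 45.2 ± 3.02% in RFP-only cells.

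Of the 4 class 6 ligands, which span the membrane and bind class A plexins, 2 were higher in RFP-only than GFP-only cells. Sema6b measured 88.4, 80.8 and 38.0 in GFP-only, 91.3, 111 and 114 in double-positive and 303, 512 and 479 in RFP-only libraries. The RFP-only libraries stood apart, and the other populations, although they did not overlap, were close. Differences were 2.68 ± 0.41 (adjusted p = 0.00114) for RFP-only against GFP-only cells and −1.99 ± 0.41 (adjusted p = 0.0287) for double-positive against RFP-only cells. The former was 2.30 (adjusted p = 0.00157) without the litter 5 GFP-only library. The latter call was lost without any 1 of the double-positive or RFP-only libraries, at adjusted p of 0.054 to 0.141. Summed skeletal muscle markers, with 10 of 11 passing as higher in RFP-only than GFP-only cells and 7 of 11 as lower in double-positive than RFP-only cells, had the same order, and their part was not tested.

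Sema6c measured 744, 825 and 123 in GFP-only, 875, 1456 and 1199 in double-positive and 2001, 2496 and 2430.4 in RFP-only libraries. It stepped up across the populations without overlap. The difference between RFP-only and GFP-only cells was 2.44 ± 0.58 (adjusted p = 0.0129), and 1.55 (adjusted p = 0.00147) without the litter 5 GFP-only library. Sema6d, a ligand of Plxna1, just missed the threshold, at 1.65 ± 0.54 (adjusted p = 0.0502). It passed with litter as a random block (adjusted p = 0.0483) and with DESeq2 (adjusted p = 0.00981), but not with edgeR. It was 1.29 (adjusted p = 0.14) without the litter 5 GFP-only library. It measured 335, 219 and 126, 162, 505 and 502 and 370.2, 818 and 958 in GFP-only, double-positive and RFP-only libraries. Sema6a, the most abundant class 6 ligand in GFP-only and double-positive cells, did not pass, and its GFP-only libraries alone spanned 1152 to 5358. As a share of the class 6 level per kilobase, Sema6a made up 70.8 ± 9.82% in GFP-only cells against 30.8 ± 5.19% in RFP-only cells, and Sema6c 19.7 ± 10.2% and 47.9 ± 3.35%.

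Of the 6 class 4 ligands and the class 7 ligand Sema7a, 0 passed in any comparison by limma or edgeR and 1, Sema4g, by DESeq2. At unadjusted limma p under 0.05 there were 3 of 7. Sema4c was the most abundant of class 4, at 1162, 897 and 178 in GFP-only, 1159.7, 1039 and 1485 in double-positive and 1391, 1533 and 1596 in RFP-only libraries, with 1.40 ± 0.55 (adjusted p = 0.0969) between the outer populations. Only the litter 5 GFP-only library was far below the rest, and without it that difference was 0.56 (adjusted p = 0.0863). Sema4g, with 62.0, 86.9 and 55.6, 146, 158 and 128 and 171, 186 and 99.4, was lowest in every GFP-only library, and its differences from GFP-only cells were 1.09 ± 0.39 (adjusted p = 0.115) for double-positive and 1.12 ± 0.39 (adjusted p = 0.067) for RFP-only cells. They were 0.96 (adjusted p = 0.175) and 0.99 (adjusted p = 0.113) without the litter 5 GFP-only library. DESeq2 called both with all libraries (adjusted p = 0.0487 and 0.0201). Sema4a means were 311 ± 86.5, 398 ± 107 and 200.1 ± 62.1 in GFP-only, double-positive and RFP-only cells, those of Sema4b 119 ± 81.9, 155 ± 19.1 and 96.1 ± 47.8, and those of Sema4f 167 ± 140.4, 199 ± 92.7 and 175 ± 96.5. The libraries of these 3 genes overlapped between RFP-only and GFP-only cells. Without the litter 5 GFP-only library, Sema4f turned from 0.58 to −0.60 in that comparison. Sema4a did not overlap between double-positive and RFP-only cells, where its difference of 1.00 ± 0.37 (adjusted p = 0.232) did not pass. Sema7a had a mean of 48.0 or less in every population, with no read in the litter 1 double-positive library.

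Sema4d and its receptor Plxnb1, a pair known from bone, where osteoclast Sema4d restrains osteoblasts, were both highest in GFP-only cells by mean, and only the receptor passed. Sema4d measured 319, 426 and 117 in GFP-only, 136, 216 and 206 in double-positive and 222, 125 and 127 in RFP-only libraries, with −0.72 ± 0.49 (adjusted p = 0.319) for RFP-only against GFP-only cells. When the litter 5 GFP-only library was left out, it passed, at −1.27 (adjusted p = 0.039). Plxnb1 measured 1743, 1397 and 653, 664, 631 and 1419 and 413, 455 and 374. All RFP-only libraries lay below all others, and the litter 5 double-positive library reached GFP-only levels. The difference between RFP-only and GFP-only cells was −1.50 ± 0.40 (adjusted p = 0.0226), and −1.92 (adjusted p = 0.00363) without the litter 5 GFP-only library. The call was lost without the litter 1 or 2 GFP-only library or any RFP-only library, with adjusted p of 0.0523 to 0.079.

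The other class B plexins differed in level by orders of magnitude. Plxnb2, which also binds class 4 ligands, overlapped between all populations, with normalized counts of 4975, 6451 and 7504 in GFP-only, 5963, 8678 and 6869.8 in double-positive and 5472, 7458 and 6299 in RFP-only libraries. Its largest difference was 0.19 ± 0.23 (adjusted p = 0.644), for double-positive against GFP-only cells (0.32 without the litter 5 GFP-only library), and it made up at least 85.5% of the class B level per kilobase on average. It was 1 of the 3 members that were not lower in the litter 5 GFP-only library than in the other GFP-only libraries. Plxnb3, a Sema5a receptor known from glia, had no read in the 3 GFP-only libraries and measured 0, 3.12 and 54.6 in double-positive and 24.4, 109 and 22.4 in RFP-only libraries. Against a floor of 3 reads over the GFP-only group, its RFP-only mean was at least 45.6-fold higher, and at least 20.6-fold without the litter 2 RFP-only library, the highest. It passed in that comparison (adjusted p = 0.0194), also without the litter 5 GFP-only library (adjusted p = 0.0377) but not without that RFP-only library (adjusted p = 0.0887). Schwann cell and neuron markers were also highest in RFP-only libraries, with 6 of 13 tested passing as higher and 2 as lower than in GFP-only cells, and their part was not tested.

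Among class A plexins, the signalling partners of neuropilins, only Plxna4 passed. Plxna4, a receptor for Sema3a and Sema6 ligands in axons, measured 84.3, 40.4 and 33.9 in GFP-only, 841, 821 and 526 in double-positive and 209, 305 and 578 in RFP-only libraries. Every GFP-only library was far below all others, and the double-positive and RFP-only libraries overlapped at litter 5. The double-positive mean was 13.8 times the GFP-only mean. The log2 differences from GFP-only cells were 3.84 ± 0.46 (adjusted p = 0.00103) for double-positive and 2.74 ± 0.46 (adjusted p = 0.00188) for RFP-only cells. Both held when any 1 library was left out, with adjusted p of 0.00129 to 0.00933 and 0.00136 to 0.0108. Without the litter 5 GFP-only library they were 3.59 (adjusted p = 0.00262) and 2.49 (adjusted p = 0.00563). For double-positive against RFP-only cells the difference of 1.10 ± 0.46 (adjusted p = 0.314) did not pass. Plxna4 made up 1.14 ± 0.307% of the class A level per kilobase in GFP-only, 11.5 ± 3.15% in double-positive and 4.95 ± 2.30% in RFP-only cells.

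Plxna1 and Plxna3 were the bulk of class A in every population. Plxna1 measured 2011, 1877 and 914 in GFP-only, 1841, 2351 and 1702 in double-positive and 2326, 2921 and 2450.0 in RFP-only libraries, and made up 53.7 ± 4.08%, 47.7 ± 3.95% and 55.6 ± 5.61% of the class level per kilobase. Its difference between RFP-only and GFP-only cells was 0.76 ± 0.30 (adjusted p = 0.097), and 0.39 without the litter 5 GFP-only library. Plxna3 means were 1029 ± 349.5, 1313 ± 315 and 1311 ± 299, with overlapping libraries. Plxna2 measured 313, 350.1 and 132, 308, 425 and 248 and 398, 1014 and 553. Its difference between RFP-only and GFP-only cells, 1.31 ± 0.45 (adjusted p = 0.0617), missed the threshold. It passed with litter as a fixed block (adjusted p = 0.0299) and with DESeq2 (adjusted p = 0.0231), but not with edgeR. Without the litter 5 GFP-only library the difference was 0.87 (adjusted p = 0.155). Plxnc1, the receptor for Sema7a and known from leukocytes, measured 91.8, 197 and 28.5 in GFP-only, 108, 170.0 and 401 in double-positive and 336, 264 and 235 in RFP-only libraries. Its RFP-only libraries lay above its GFP-only ones, with 1.76 ± 0.66 (adjusted p = 0.0831), which fell to 1.03 (adjusted p = 0.228) without the litter 5 GFP-only library. The highest library was the double-positive one of litter 5, in the population whose blood and immune marker sums spanned 3572 to 22582, and the part of those cells was not tested.

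Of the 2 neuropilins Nrp1 passed and Nrp2 did not, and the difference between them was not tested. Nrp1, the co-receptor of Sema3a and of VEGF-A, measured 1602, 2022 and 1092 in GFP-only, 1288, 3044 and 1763 in double-positive and 3736, 6188 and 6394 in RFP-only libraries. All RFP-only libraries lay above all others, and the other populations overlapped. The difference between RFP-only and GFP-only cells was 1.79 ± 0.35 (adjusted p = 0.00453), and 1.55 (adjusted p = 0.0125) without the litter 5 GFP-only library. For double-positive against RFP-only cells it was −1.47 ± 0.35 (adjusted p = 0.0503), on the edge of the threshold. That difference passed with litter as a fixed or a random block (adjusted p = 0.0287 and 0.0459). DESeq2 called it too (adjusted p = 0.0042), and edgeR did not. Nrp2, the co-receptor of Sema3f and VEGF-C, measured 5030.0, 4920.3 and 1076, 2322, 4729.9 and 3797 and 3735, 3329 and 5362 in the same order and passed in no comparison, with 0.44 ± 0.52 (adjusted p = 0.579) for RFP-only against GFP-only cells, which turned to −0.29 (adjusted p = 0.536) without the litter 5 GFP-only library. Nrp1 thus made up a mean of 38.7% of the 2 neuropilins per kilobase in GFP-only (27.8 to 55.1%), 40.0% in double-positive (36.0 to 43.8%) and 61.0% in RFP-only libraries (54.8 to 69.2%). Of 13 endothelial markers, 7 were likewise higher in RFP-only than GFP-only cells, and their part was not tested.

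Set side by side, ligands and the receptors they are known to bind did not share one pattern. Sema3a and Nrp1 were both higher in RFP-only than GFP-only cells, and both passed. Sema3f passed there and Nrp2 did not. Sema3e was lower in RFP-only cells, and Plxnd1 was too by its values (−1.28) but did not pass, although DESeq2 called it (adjusted p = 0.0325). Sema4d and Plxnb1 were both lower by value, and only Plxnb1 passed. Sema6d and Plxna1 were both higher by value and neither passed, although DESeq2 called Sema6d (adjusted p = 0.00981). Sema7a (−1.94 ± 1.27 (adjusted p = 0.305)) and Plxnc1 (1.76) pointed in opposite directions, and neither passed. In the fit that left out the litter 5 GFP-only library, these were −1.39 and 1.03.

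The other genes of the pathway were described from 4 lists with 58 tested members. In RFP-only against GFP-only cells, 20 were higher and 2 lower, 36 did not pass, and the median log2 difference was 0.66. In double-positive against GFP-only cells, 9 were higher and 3 lower with a median of 0.30, and in double-positive against RFP-only cells 0 were higher (limma; 0 at unadjusted p under 0.05) and 3 lower with a median of −0.32. Of all tested genes, 11.8% were higher and 8.48% lower in the first comparison, 5.27% and 3.02% in the second and 1.8% and 1.05% in the third, with medians of 0.05, 0.04 and −0.01. Without the litter 5 GFP-only library the pathway genes gave 21 higher and 4 lower with a median of 0.33 in the first comparison and 9 and 3 with a median of 0.05 in the second. In that fit 20.6% and 8.74% of all tested genes passed, with medians of 0.02 and 0.006. Of the 22 and 12 pathway genes called with all libraries, 20 and 11 were still called, the exceptions being Cdk5r1 and Flt1 in the first and Fyn in the second.

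Of the 5 growth factors that bind neuropilins, 3 were higher in RFP-only than GFP-only cells, against 11.8% of all tested genes. Vegfc, which drives lymphatic growth, measured 121, 143 and 119 in GFP-only, 312, 452 and 337 in double-positive and 917, 1061 and 965 in RFP-only libraries. It stepped up without overlap, and all 3 differences passed: 1.50 ± 0.27 (adjusted p = 0.00724) and 2.93 ± 0.27 (adjusted p = 4.07e-05) from GFP-only cells for double-positive and RFP-only cells, and −1.43 ± 0.27 (adjusted p = 0.0171) for double-positive against RFP-only cells. The first was lost with only the populations compared in the fit (adjusted p = 0.0522). The last was lost without the litter 1 or 5 double-positive library or any RFP-only library, with adjusted p of 0.0676 to 0.0956. Vegfd, a second lymphatic factor, was higher in RFP-only than GFP-only cells by 3.76 ± 0.71 (adjusted p = 0.00366). Pgf, the placental growth factor, was higher there by 1.31 ± 0.29 (adjusted p = 0.00834) and lower in double-positive than RFP-only cells, at −1.33 ± 0.29 (adjusted p = 0.0343). The latter call was lost with litter as a fixed block (adjusted p = 0.0592) and without any 1 of the double-positive or RFP-only libraries, at adjusted p of 0.0776 to 0.146.

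Of the 20 cytoplasmic effectors tested, 6 were higher in RFP-only than GFP-only cells and 0 lower (limma; 0 at unadjusted p under 0.05), against 11.8% and 8.48% of all tested genes. Crmp1 and Dpysl3, of the collapsin response mediator family that relays Sema3a to microtubules, were higher by 3.08 ± 0.46 (adjusted p = 0.000922) and 1.82 ± 0.29 (adjusted p = 0.0012). Dpysl3 was also lower in double-positive than RFP-only cells, at −1.76 ± 0.29 (adjusted p = 0.00736), with 2488, 4947 and 2889.8 against 9046, 12165 and 12517 normalized counts. Fyn, a kinase bound by class A plexins, was higher in RFP-only cells by 2.08 ± 0.29 (adjusted p = 0.000605). In double-positive against GFP-only cells, 2 of the 20 effectors passed, both higher, where 5.27% of all tested genes were higher. They were Crmp1 at 2.08 ± 0.46 (adjusted p = 0.0194) and Fyn at 1.17 ± 0.29 (adjusted p = 0.0312). The Crmp1 call was lost without the litter 2 double-positive library (adjusted p = 0.083) or litter 5 (0.0578). The Fyn call was lost without either of these or the litter 1 or 5 GFP-only library or the litter 2 RFP-only library, with adjusted p of 0.0513 to 0.129.

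Of 17 GTPases and their regulators, 4 were higher and 1 lower in RFP-only than GFP-only cells, against 11.8% and 8.48% of all tested genes. For double-positive against GFP-only cells 1 was higher and 2 were lower, against 5.27% and 3.02% of all tested genes. Rap1b, of the Rap family on which plexins act as GTPase activators, was higher in RFP-only cells by 0.90 ± 0.18 (adjusted p = 0.00479). Mras and Rras2, R-Ras relatives, were highest in GFP-only cells. Mras was lower, at −1.82 ± 0.36 (adjusted p = 0.00474) in RFP-only and −1.48 ± 0.36 (adjusted p = 0.0286) in double-positive cells, the latter not without the litter 1 or 2 double-positive library (adjusted p = 0.0941 and 0.11). Rras2 was lower, at −1.50 ± 0.28 (adjusted p = 0.00916) in double-positive cells.

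Of 16 tested partner receptors, 7 were higher and 1 lower in RFP-only than GFP-only cells, against 11.8% and 8.48% of all tested genes. Of these 7, Kdr and Flt1, the VEGF receptors, are also in the endothelial marker list and Tyrobp in the blood and immune list. Cntn2, an axonal adhesion molecule, was almost absent from GFP-only libraries, at 9.92, 0 and 0, and measured 156, 85.0 and 164 in double-positive and 39.6, 27.2 and 77.0 in RFP-only libraries, with 5.88 ± 0.93 (adjusted p = 0.0039) and 4.33 ± 0.93 (adjusted p = 0.00736). Cd72, a Sema4d receptor of B cells, was higher in RFP-only cells by 1.91 ± 0.39 (adjusted p = 0.0054). Tyrobp, the adaptor through which Sema6d signals in osteoclasts was higher by 4.51 ± 0.66 (adjusted p = 0.00268) in double-positive and 3.14 ± 0.66 (adjusted p = 0.00682) in RFP-only cells. Of the 13 blood and immune markers, 9 and 6 passed as higher in these comparisons, and their part was not tested. Itga1, a subunit of the collagen-binding integrin that Sema7a engages, was lower in double-positive than GFP-only cells, at −1.48 ± 0.26 (adjusted p = 0.00711).

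By class, the summed level per kilobase of class 5 ligands was 118 ± 22.7 in GFP-only, 258 ± 29.0 in double-positive and 460.4 ± 16.8 in RFP-only cells, with no overlap between populations. The summed class 3 level was 1179.5 ± 536, 2133 ± 182 and 2067 ± 228 in the same order. Its GFP-only libraries of litters 1, 2 and 5 gave 1371, 1593 and 575, each below every double-positive and RFP-only library. The litter 5 library thus lowered the GFP-only mean. Class sums and within-class shares were not recomputed without that library. Class B plexins, led by Plxnb2, gave 949 ± 110.5, 1026 ± 175 and 881 ± 139, within the spread of the libraries.

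The genes lie on 17 chromosomes. Sema3a, Sema3c, Sema3d and Sema3e share chromosome 5, where 2 did not pass and the other 2 differed in opposite directions between RFP-only and GFP-only cells. Sema3b and Sema3f share chromosome 9 (chr9:107597674-107609229 and chr9:107681500-107710475, minus strand for both, GENCODE M21 on GRCm38), and they too differed in opposite directions.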

How the data were processed

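Polyadenylated RNA from sorted knee cells was made into Nextera XT libraries, per the labels' protocols. FastQC, STAR, Salmon, DESeq2 and build mm10 are listed, per the submitters' processing notes, without versions or roles; strand setting and gene models are not given in the sources used here. The authors deposited normalized counts, a scaled signal for each gene in each library. Dividing by the worth of 1 read gave whole numbers (within 0.001) for 100% of values, and these recovered reads had totals of 25199258 to 47079305. If estimated counts were rounded before scaling, these are rounded estimates.

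Symbols, exon lengths and 1-based coordinates came from GENCODE M21 (GRCm38, the assembly mm10 names), which matched 54495 identifiers and not 37. Members were taken by gene symbol, but the family was proposed and all other lists were chosen with earlier results of these data known. The 17764 genes averaging 10 or more across the 9 libraries were fitted together with limma 3.58.1 in R 4.3.3 on log2(normalized count + 1), a scale that understates fold changes of low genes, and the prior variance followed mean expression. Two-sided p-values were Benjamini-Hochberg adjusted across these genes, called under 0.05, with SE from the fit. A member was given per library where it was called in a comparison and averaged at least 100 in its highest population. From each pathway list up to 3 called genes with the smallest adjusted p per comparison were named. Some results that this rule names among the GTPases are not reported here. Known ligand and receptor pairs were set side by side, and other members are named for completeness. Alternatives changed pseudocount, filter, scaling, prior and libraries, blocked litter, or used edgeR 4.0.16 and DESeq2 1.42.0 on recovered reads. The limma and edgeR fits were also run on simulated counts with known changes. EdgeR called 1236 genes for double-positive against GFP-only, 3191 for RFP-only against GFP-only and 411 for double-positive against RFP-only cells.

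Litter numbers name separate litters, so same-numbered libraries are paired by design. Deviations from population means correlated with a median of 0.103 (−0.0353 to 0.149) over 9 pairs of 1 litter and −0.0409 (−0.146 to 0.0915) over 18 pairs of different litters. Replicates of a population differed by more than sampling noise, with a chi-square of at least 46.6 per degree of freedom, so each counted as 1 sample. Reporter transcripts were not analysed here. Member exons overlap exons of few other genes, and the largest such partner had 173 reads over all libraries.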

Additional observations from a re-analysis of the deposited data

How the results depend on the processing

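The count of members called in RFP-only against GFP-only cells stayed within 1.5 times its value of 12 under each alternative run. For double-positive against GFP-only cells, 3 became 5 with quantile normalization, 7 with DESeq2 and 5 with a correction for transcript length added after the data were seen. The genes called there, 1472, became 2780 with DESeq2 and 697 with only these populations fitted. For double-positive against RFP-only cells, 2 members became 4 with quantile normalization, 4 with DESeq2 and 6 with only these populations fitted, and 506 genes became 1152 with DESeq2 and 1008 with only these populations. Quantile normalization moved the median of all genes by 0.11 in GFP-only, −0.04 in double-positive and −0.06 in RFP-only cells (log2).

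Leaving out each library in turn gave 2 to 5 members and 637 to 1553 genes for double-positive against GFP-only, 9 to 14 members and 2190 to 3716 genes for RFP-only against GFP-only, and 0 to 6 members and 217 to 1050 genes for double-positive against RFP-only cells. The F-test gave 6 to 11 members and 1938 to 3328 genes. The 0 came without double-positive litter 1 or 5 or RFP-only litter 1 or 2. At unadjusted limma p under 0.05 those fits gave 6 to 8 members and 1794 to 2005 genes. The count of 6 called members came without GFP-only litter 5. The lowest gene counts came without double-positive litter 2, RFP-only litter 5, double-positive litter 1 and RFP-only litter 5.

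With litter as a replicate block, 3, 13 and 3 members passed as a fixed term and 3, 13 and 3 as a random effect, in the same order of comparisons, and 10 and 12 by F-test. Calls changed for Sema3f, Sema3g, Sema6d, Plxna2, Nrp1 and Pgf, with values given beside them, and for no other member or named gene. The consensus correlation within litters was 0.0169.

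Log2 differences of members that were not called changed sign in some fits, and no called member did. With DESeq2 these were Sema6a −0.030 (double-positive against GFP-only), Sema7a 0.025 (double-positive against RFP-only), Plxna3 0.0024 (double-positive against RFP-only) and Nrp2 −0.026 (double-positive against GFP-only). With TMM scaling this was Plxna3 0.0075 (double-positive against RFP-only). With edgeR these were Sema6a −0.0091 (double-positive against GFP-only), Sema7a 0.057 (double-positive against RFP-only), Plxna3 0.015 (double-positive against RFP-only) and Nrp2 −0.0034 (double-positive against GFP-only). With quantile normalization these were Plxna3 0.036 (double-positive against RFP-only). With the length correction these were Sema3d 0.0017 (double-positive against RFP-only), Sema4g 0.062 (double-positive against RFP-only), Plxna3 0.084 (double-positive against RFP-only) and Plxnb2 −0.23 (RFP-only against GFP-only). Leaving out single libraries gave Sema4f −0.35 to 1.60, Sema6a −0.30 to 0.81, Plxna2 −0.053 to 0.65, Nrp1 −0.016 to 0.60 and Nrp2 −0.52 to 0.59 for double-positive against GFP-only cells. It gave Sema4b −0.65 to 0.30, Sema4f −0.60 to 1.35, Sema6a −0.70 to 0.41, Plxnb2 −0.13 to 0.17 and Nrp2 −0.29 to 0.82 for RFP-only against GFP-only cells. It gave Sema3d −0.34 to 0.20, Sema4f −0.27 to 0.66, Sema4g −0.31 to 0.14, Sema7a −1.91 to 0.72, Plxna3 −0.20 to 0.21, Plxnd1 −0.79 to 0.26 and Nrp2 −0.45 to 0.064 for double-positive against RFP-only cells.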
